A study of Mus musculus with 10 samples.

Results

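Lung fibroblasts at 12 h were compared with lung fibroblasts at 0 h in bulk RNA-seq of mouse cells. The comparison covers the 12307 genes, of 22594 in the deposited table, that reached 1 TPM or more in at least 2 of the 4 lung libraries. TPM is a share of a library's transcripts corrected for transcript length, and was summed here over the transcripts of each gene. Of the 10287 genes left out, 9732 lay under 1 TPM in all 4 lung libraries and 555 reached it in 1. There were 2 libraries of lung cells at 12 h and 2 at 0 h. The series also holds 3 libraries of ear cells at 12 h and 3 at 0 h, which entered the fit and served to compare the time difference between tissues. All 10 libraries carry the condition label post-mortem and the cell type label fibroblast. The labels used here give no strain, sex or age, no culture conditions, and no statement of the event from which the hours were counted. They do not say that libraries of a group came from separate animals, so every p below measures the spread between these libraries, which may be technical.

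Fibroblasts build the extracellular matrix of connective tissue, the collagen and elastic fibres between cells, and turn it over. Those of the lung carry a set of mesenchymal transcription factors, among them Tbx4, Tcf21 and Foxf1, that are active in the developing lung mesenchyme and persist in the adult organ. Macrophages, the phagocytes that also live in lung tissue, make the complement component C1q, lysosomal enzymes and many chemokines, the secreted proteins that draw leukocytes into a tissue. In bulk RNA, fewer cells of a type and less RNA per cell cannot be told apart.

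The lung libraries held similar numbers of detected genes, while their share of mitochondrial transcripts varied within each time. They held 12103 and 12189 genes at 1 TPM or more at 12 h, against 12072 and 12210 at 0 h. Mitochondrially encoded transcripts took 1.297% and 0.778% of TPM at 12 h, against 0.672% and 1.066% at 0 h. Sequencing depth is unknown, because TPM keeps no record of read numbers.

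The 2 libraries at 12 h correlated less with each other than 3 of the 4 pairs of libraries from different times did. Their log2(TPM + 1) values correlated across the genes tested at 0.937 (Pearson), with 1774 genes at least 2-fold apart, whereas the 2 libraries at 0 h correlated at 0.968, with 698 genes 2-fold apart. The 4 pairs across times correlated at 0.936 to 0.971. These are correlations across genes, which are not independent replicates. Of the genes tested, the highest value lay in 12 h libraries 1 and 2 for 18.1% and 38.4%, and in 0 h libraries 1 and 2 for 15.7% and 27.8%. The lowest value lay in the libraries, in the same order, for 34.4%, 23.6%, 26.0% and 16.0%. These shares are the background for later counts of highest and lowest values. The genes that set the libraries apart are described with the groups they belong to.

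Markers of other cell types were checked in the same libraries. Fibroblast markers were abundant and summed to 4692 and 5703 TPM at 12 h, against 3925 and 7330 TPM at 0 h. Col1a1, a chain of type I collagen, stood at 563 and 601 TPM at 12 h, against 470 and 1242 TPM at 0 h. Dcn, the matrix proteoglycan decorin, stood at 448 and 129 TPM at 12 h, against 101 and 490 TPM at 0 h. Of the 14 fibroblast markers tested, 1 was lower in both 12 h libraries than in both 0 h libraries, against 14.0% of all genes tested. None was higher in both, against 11.2% of all genes. With 2 libraries against 2 the groups overlap for most genes, so the overlap of the other 13 markers does not show a stable level.

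All 20 macrophage and myeloid markers passed the filter on low values. They summed to 7470 and 17485 TPM at 12 h, against 7253 and 5431 TPM at 0 h, so cells labelled fibroblasts carried abundant macrophage transcripts in every lung library. The same sum was 29.8 to 57.3 TPM in the ear libraries at 12 h, against 27.2 to 50.5 TPM at 0 h. Lyz2 alone made up most of the lung sums. Without Lyz2 the markers summed to 1019 and 3765 TPM in lung at 12 h, against 1217 and 656 TPM at 0 h, so the groups overlapped. Lymphocyte markers summed to 1.42 and 0.497 TPM in lung at 12 h, against 1.11 and 0.999 TPM at 0 h, with 0 of 12 passing the filter and Cd3g and Cd8a at 0 in all 4 lung libraries. Endothelial markers summed to 42.9 and 40.4 TPM at 12 h, against 45.5 and 34.3 TPM at 0 h, and 4 of 12 passed. Alveolar and airway epithelial markers summed to 24.5 and 56.2 TPM at 12 h, against 74.4 and 41.4 TPM at 0 h, and 9 of 14 passed. The endothelial gene Pecam1 and the alveolar and airway factor Nkx2-1, picked after their values were seen, stayed under 1 TPM in all 4 libraries. Other members of both lists were above 1 TPM in all 4. The endothelial gene Cdh5 stood at 2.65 and 2.10 TPM at 12 h, against 1.65 and 1.675 TPM at 0 h. The epithelial keratin gene Krt8 stood at 2.20 and 8.90 TPM at 12 h, against 16.5 and 4.45 TPM at 0 h. Pericyte and smooth muscle markers summed to 467 and 270 TPM at 12 h, against 323 and 260 TPM at 0 h, and 8 of 11 passed. In ear they summed to 48.7 to 72.2 TPM at 12 h, against 41.0 to 65.8 TPM at 0 h. Pf4, from the platelet markers, stood at 167 and 1021 TPM in lung at 12 h, against 540 and 228 TPM at 0 h. S100a8, from the neutrophil markers, stood at 36.5 and 36.8 TPM, against 57.3 and 48.9 TPM.

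Some transcripts of the Y chromosome did not match between the libraries at 0 h, and so were uneven between the times compared. Ddx3y, a Y-linked RNA helicase gene, stood at 0.758 and 0 TPM at 12 h, against 0 and 53.3 TPM at 0 h. Eif2s3y, a Y-linked translation initiation factor gene, stood at 0.0878 and 0 TPM at 12 h, against 0.0231 and 32.9 TPM at 0 h. Kdm5d, also Y-linked, stood at 0.0241 and 0 TPM at 12 h, against 0.0229 and 6.21 TPM at 0 h. Among the lung libraries these genes were thus above 1 TPM in 0 h library 2 alone, and in neither 12 h library. Among the ear libraries they were so in 0 h library 2 as well, at 52.5 TPM for Ddx3y, 28.9 TPM for Eif2s3y and 7.33 TPM for Kdm5d. Uty, the Y-linked gene that passed the filter, was present in all 4 lung libraries, at 45.5 and 33.3 TPM at 12 h, against 44.4 and 66.05 TPM at 0 h. The bearing of these differences on the other results was not tested.

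Ccl12 was the gene called between 12 h and 0 h in the main fit, though not in every alternative fit. It encodes a CC chemokine, a ligand of the monocyte receptor Ccr2, and lies at chr11:82101845-82103400 on the plus strand of GRCm38 (ENSMUSG00000035352.3). It stood at 14.3 and 18.6 TPM at 12 h, against 1.62 and 1.78 TPM at 0 h. Both 12 h libraries were far above both 0 h libraries, and libraries of the same time were close to each other. The log2 fold change on the log2(TPM + 1) scale was 2.68 with an SE of 0.215, and the adjusted p was 0.00515 in limma with Benjamini-Hochberg adjustment over all 12307 genes. Ccl12 was the 1 gene called at an adjusted p under 0.05, 0.00813% of those tested, and 0 genes were called lower. An unadjusted p under 0.05 was reached by 527 genes (4.28%), 257 of them higher at 12 h (2.09%) and 270 lower (2.19%). With no difference a share of 0.05 of genes would be expected there, so this count is no excess. With 2 libraries against 2, an exact permutation test of any single value cannot give a p below 0.333, so the calls rest on the spread shared across libraries and genes.

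The call for Ccl12 rested in part on the ear libraries, where the gene stood at 0, 0 and 0.164 TPM at 12 h, against 0 TPM in all 3 libraries at 0 h, and which lend their small spread to the shared SE. Fitted on the 4 lung libraries alone, the fold change was the same, the SE was 0.285 and the limma adjusted p was 1. The adjusted p of Ccl12 was also 0.906 with a pseudocount of 0.1, 0.134 with a filter of 5 TPM, 0.115 without 0 h library 1 and 0.0892 without 0 h library 2. Over all alternatives its adjusted p ran from 0.000707 to 1, and its fold change was positive in each.

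The genes beside Ccl12 in the same chemokine cluster did not share its pattern. They were chosen for their position after the value of Ccl12 had been seen. Ccl2, the main monocyte attractant of the cluster, stood at 218 and 392 TPM at 12 h, against 237 and 427 TPM at 0 h. Ccl7, another Ccr2 ligand, stood at 263 and 244 TPM at 12 h, against 164 and 575 TPM at 0 h. Ccl11, the eosinophil attractant eotaxin, stood at 17.6 and 2.32 TPM at 12 h, against 0.820 and 43.1 TPM at 0 h. The groups overlapped for each of the 3, and for Ccl8 as well.

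The 250 bases before the RefSeq start of Ccl12, C1qb and Clec12a are shown because these were the 3 genes with the smallest limma p. Of 4 genes looked up in the RefSeq promoter table, C1qa being the other, these 3 matched. They come from RefSeq on GRCm38.p6, at chr11:82101595-82101844 (plus strand) for Ccl12, chr4:136886201-136886450 (minus strand) for C1qb and chr6:129349994-129350243 (plus strand) for Clec12a, and read 5′ to 3′ along the gene. The RefSeq start of Clec12a lies inside the gene as GENCODE draws it. Capitals mark matches to the letters of 2 motifs. These are GAGGAA, the core bound by the myeloid factor PU.1, and TGANTCA, a loose form of the AP-1 site with any base at N.
Ccl12: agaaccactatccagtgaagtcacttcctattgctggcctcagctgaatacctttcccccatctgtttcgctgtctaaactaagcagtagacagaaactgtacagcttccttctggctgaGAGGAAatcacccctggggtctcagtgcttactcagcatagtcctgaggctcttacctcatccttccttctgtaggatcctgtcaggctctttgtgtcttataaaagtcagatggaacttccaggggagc
C1qb: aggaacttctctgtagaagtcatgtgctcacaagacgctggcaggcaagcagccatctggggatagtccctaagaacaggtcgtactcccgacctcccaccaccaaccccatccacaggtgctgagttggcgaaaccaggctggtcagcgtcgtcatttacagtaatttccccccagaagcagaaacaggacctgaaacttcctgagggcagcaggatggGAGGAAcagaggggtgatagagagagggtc
Clec12a: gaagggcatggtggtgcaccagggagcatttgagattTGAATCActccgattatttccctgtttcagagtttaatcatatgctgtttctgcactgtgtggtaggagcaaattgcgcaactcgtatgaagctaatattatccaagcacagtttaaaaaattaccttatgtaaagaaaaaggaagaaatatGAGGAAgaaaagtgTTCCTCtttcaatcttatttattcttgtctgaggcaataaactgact
Both strands were searched, and overlaps were allowed. The PU.1 core occurred 1 time in the Ccl12 window, 1 time in the C1qb window and 2 times in the Clec12a window, and 23.3% of all 32851 promoter windows of that length hold it. The loose AP-1 letters occurred 1 time, in the Clec12a window, as TGAATCA, and 6.75% of all windows hold them. The AP-1 site itself has C or G in the middle, so this match is not a full AP-1 site. The core of the interferon-stimulated response element, which 2.98% of windows hold, and the NF-kB site, which 0.356% hold, had no match in the 3 windows. A match of letters is a description of the sequence and not of binding.

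**Figure D1:**
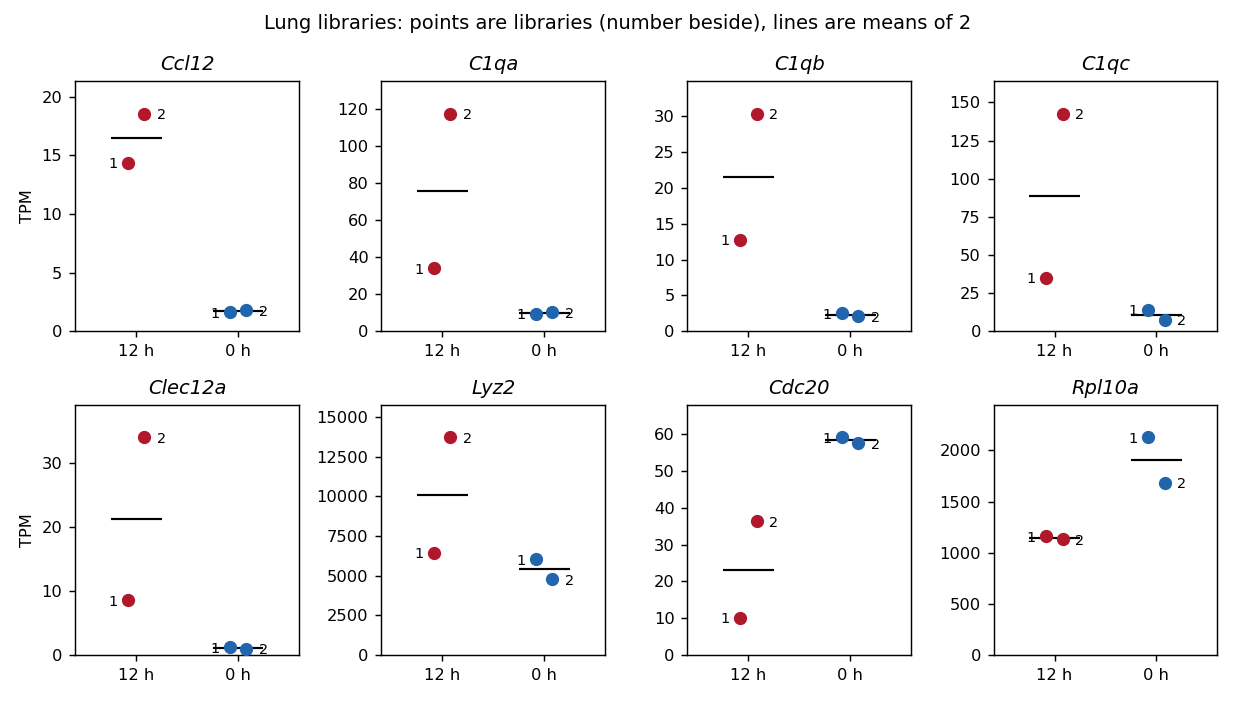
TPM of 8 genes in each lung library at 12 h (red) and 0 h (blue), with the library number beside each point and a line at the mean of the 2 libraries. Ccl12 is at 14.3 and 18.6 TPM at 12 h against 1.62 and 1.78 TPM at 0 h, while the C1q chains, Clec12a and Lyz2 are highest in 12 h library 2 and Cdc20 is lowest in 12 h library 1.

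Of the genes higher in both 12 h libraries that reached 5 TPM there, the 11 with the smallest p after Ccl12 included the 3 chains of C1q, Clec12a, Pld4 and Il1rl1. None of the 11 passed the adjusted threshold. C1q, the recognition subunit of the classical complement pathway, has 3 chains encoded side by side at chr4:136880129-136898803 on the minus strand. C1qb stood at 12.7 and 30.4 TPM at 12 h, against 2.50 and 2.08 TPM at 0 h (log2 fold change 2.66, SE 0.337, limma adjusted p = 0.128). C1qa stood at 34.0 and 117 TPM at 12 h, against 9.38 and 10.1 TPM at 0 h (log2 fold change 2.58, limma adjusted p = 0.477). C1qc stood at 34.9 and 143 TPM at 12 h, against 13.9 and 7.37 TPM at 0 h (log2 fold change 2.68, limma adjusted p = 0.533). For all 3 chains both 12 h libraries were above both 0 h libraries, and 12 h library 2 was far above 12 h library 1.

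Clec12a, an inhibitory lectin receptor of myeloid cells at chr6:129342691-129365303, stood at 8.53 and 34.0 TPM at 12 h, against 1.22 and 0.959 TPM at 0 h (log2 fold change 3.13, limma adjusted p = 0.373). Pld4, an endolysosomal exonuclease, stood at 6.08 and 16.3 TPM at 12 h, against 2.51 and 1.81 TPM at 0 h, and Nxpe5 at 9.78 and 23.9 TPM, against 2.31 and 3.24 TPM. These genes too were higher in 12 h library 2 than in 12 h library 1. Without 12 h library 2 the log2 fold change was 2.06 for C1qb and 2.19 for Clec12a, and without 12 h library 1 it was 3.25 and 4.07. Each of these fits left 1 library at 12 h, which was taken to vary as libraries of the other groups do. In ear C1qb reached at most 0.0194 TPM and Clec12a 0.0613 TPM, so the ear libraries lend their small spread to the SE of these genes too.

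Among the other genes of the 12 with the smallest p in this direction, Il1rl1, Il21r and Ifi27l2b had 12 h libraries close together. Il1rl1, which encodes the interleukin-33 receptor ST2, stood at 26.7 and 28.1 TPM at 12 h, against 7.84 and 6.22 TPM at 0 h (log2 fold change 1.83, SE 0.360, limma adjusted p = 0.533). Il21r, the interleukin-21 receptor, stood at 6.16 and 5.56 TPM at 12 h, against 2.58 and 0.772 TPM at 0 h. The interferon-inducible gene Ifi27l2b stood at 6.77 and 7.19 TPM at 12 h, against 2.89 and 1.21 TPM at 0 h. For Il1rl1 and Ifi27l2b the gap between the times was wider than the gap within either time, in TPM and on the log2(TPM + 1) scale. Its paralog Ifi27l2a stood at 22.6 and 46.3 TPM at 12 h, against 2.01 and 4.30 TPM at 0 h (log2 fold change 3.06), and Lce1g, of the late cornified envelope family, at 5.86 and 13.5 TPM, against 2.20 and 0.342 TPM. Ifi27l2a, Ifi27l2b and Lce1g have close paralogs, so their values depend on how reads were divided among copies.

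In the other direction 0 genes passed the adjusted threshold, and the 12 genes with the smallest p that were lower in both 12 h libraries and reached 5 TPM in both 0 h libraries belong to varied functions. Nsg1, an endosomal trafficking protein best known in neurons, stood at 99.8 and 95.4 TPM at 12 h, against 226 and 249 TPM at 0 h (log2 fold change -1.27, SE 0.257, limma adjusted p = 0.533). Snai1, a transcription factor of mesenchymal cells, stood at 18.2 and 18.3 TPM at 12 h, against 27.5 and 44.8 TPM at 0 h (log2 fold change -0.91). Rpl22l1, a ribosomal protein paralog, stood at 106 and 114 TPM at 12 h, against 194 and 211 TPM at 0 h (log2 fold change -0.88). In each of these genes the 12 h libraries lay close together and below both 0 h libraries.

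Clca3a1, of the chloride channel accessory family, stood at 6.01 and 3.91 TPM at 12 h, against 12.8 and 15.9 TPM at 0 h. Ick, a kinase of the primary cilium, stood at 4.49 and 4.90 TPM at 12 h, against 11.5 and 9.99 TPM at 0 h. The imprinted gene Peg10 stood at 4.98 and 5.50 TPM at 12 h, against 12.52 and 9.53 TPM at 0 h. These 3 genes were at low levels at both times. Pml, which organises nuclear bodies, stood at 14.7 and 21.1 TPM at 12 h, against 34.9 and 30.4 TPM at 0 h, and the decapping enzyme gene Dcp2 at 10.1 and 9.40 TPM, against 16.4 and 18.02 TPM. The other 4 were Cdc42ep2, a Cdc42 effector, the transporter gene Slco3a1, the glycosyltransferase family gene Glt8d2 and Gemin8 of the SMN complex, with log2 fold changes of -0.77, -0.77, -1.19 and -0.81.

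Over all genes tested the median log2 fold change was -0.004, and 229 genes had a fold change of at least 2-fold higher and 189 of at least 2-fold lower. Both 12 h libraries were above both 0 h libraries for 1379 genes (11.2%), and below both for 1727 genes (14.0%). These shares are the background for the counts of gene groups. Ccl12 was the 1 member called in any of the groups described here, so their members are given as values. The groups and the genes measured were chosen with earlier results of these data known, and a median of a group is set beside the median of all genes as a description, with no test.

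**Figure D2:**
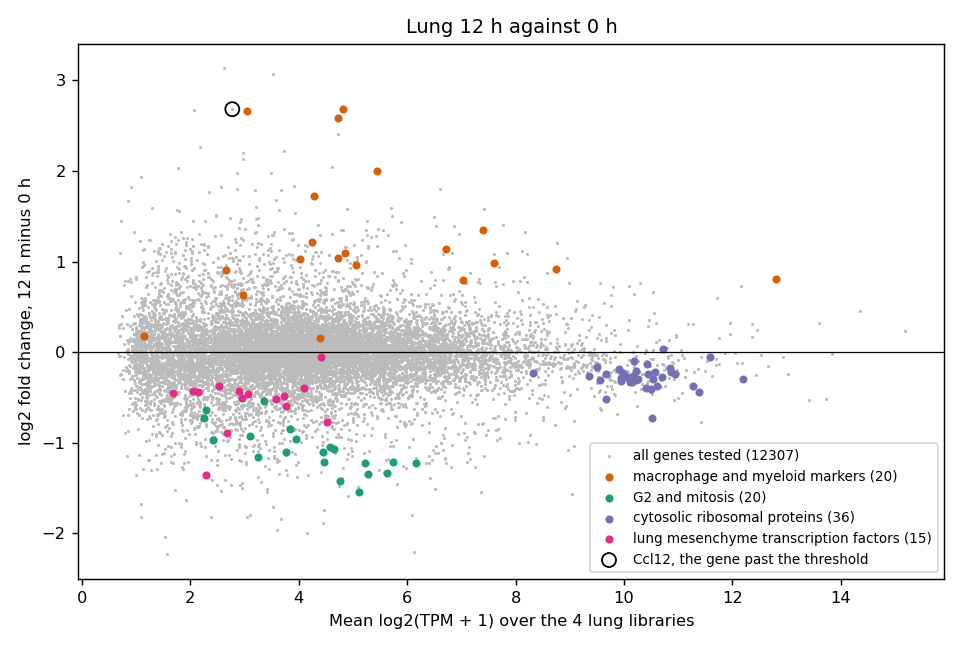
Log2 fold change in lung, 12 h minus 0 h, on the log2(TPM + 1) scale (vertical axis) against the mean log2(TPM + 1) of the 4 lung libraries (horizontal axis) for 12307 genes (grey), with 4 gene groups in colour and Ccl12 circled. All 20 macrophage and myeloid markers lie above 0 and all 20 G2 and mitosis genes and all 15 lung mesenchyme transcription factors below it.

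All 20 macrophage and myeloid markers had a positive fold change, with a median of 1.03, and both 12 h libraries were above both 0 h libraries for 7 of them, against 11.2% of all genes. Lyz2, lysozyme and the most abundant of them, stood at 6451 and 13720 TPM at 12 h, against 6037 and 4775 TPM at 0 h (log2 fold change 0.81). Fcer1g, the shared signalling chain of Fc receptors, stood at 150 and 482 TPM at 12 h, against 147 and 75.4 TPM at 0 h (log2 fold change 1.34). Cd68, a lysosomal membrane protein of phagocytes, stood at 124 and 603 TPM at 12 h, against 181 and 105 TPM at 0 h (log2 fold change 0.99). The highest value lay in 12 h library 2 for all 20 markers. In 12 h library 1, Lyz2 and Fcer1g were just above 0 h library 1, and Cd68 lay between the 0 h libraries. The median of the list was 0.08 without 12 h library 2 and 2.08 without 12 h library 1. In ear the median was -0.01.

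The C1q chains and Clec12a were set against the other macrophage markers within each library, a measure chosen after their values had been seen. The 16 macrophage markers other than the C1q chains and Lyz2 summed to 937.7 and 3474 TPM at 12 h, against 1191 and 636.6 TPM at 0 h. Per 1000 TPM of these, C1qa stood at 36.3 and 33.8 TPM at 12 h, against 7.88 and 15.9 TPM at 0 h. C1qb stood at 13.6 and 8.74 TPM at 12 h, against 2.10 and 3.26 TPM at 0 h, and C1qc at 37.2 and 41.0 TPM, against 11.65 and 11.58 TPM. Clec12a stood at 9.10 and 9.79 TPM at 12 h, against 1.02 and 1.51 TPM at 0 h. Ccl12 stood at 15.3 and 5.34 TPM at 12 h, against 1.36 and 2.80 TPM at 0 h, per 1000 TPM of the same markers. Since these genes were picked for having both 12 h libraries above both 0 h libraries, their order on this scale is a description and lends no support.

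Lysosomal genes moved with the macrophage markers. All 28 lysosomal enzyme and membrane protein genes had a positive fold change, with a median of 0.47. Of the 28, 9 were above both 0 h libraries in both 12 h libraries, against 11.2% of all genes. They summed to 9942 and 23071 TPM at 12 h, against 13099 and 8832 TPM at 0 h, and the highest value lay in 12 h library 2 for 26 of 28. Ctss, the protease cathepsin S, stood at 254 and 813 TPM at 12 h, against 213 and 153 TPM at 0 h (log2 fold change 1.33). Lamp1, a major lysosomal membrane protein, stood at 629 and 849 TPM at 12 h, against 540 and 495 TPM at 0 h (log2 fold change 0.50). Ctss and Lamp1 were higher in both 12 h libraries, but without 12 h library 2 the median of the group was -0.03. The part of macrophage transcripts in these values was not tested.

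Chemokine, cytokine and interferon-stimulated genes had medians above 0 in lung, and in ear their medians were 0.46, 0.22 and 0.14. Of 24 CC and CXC chemokines 20 passed the filter, with a median log2 fold change of 0.29. Of the 20, 5 were higher in both 12 h libraries, against 11.2% of all genes, and 1 lower, against 14.0%. Ccl4, an attractant made by macrophages, stood at 34.0 and 74.8 TPM at 12 h, against 26.1 and 10.03 TPM at 0 h (log2 fold change 1.58). Cxcl16, a membrane-bound chemokine, stood at 32.4 and 55.7 TPM at 12 h, against 15.3 and 22.2 TPM at 0 h (log2 fold change 1.16). Cxcl12, a chemokine of fibroblasts and other stromal cells, was the member lower in both 12 h libraries, at 264 and 190.5 TPM, against 439 and 407 TPM at 0 h. Of 25 NF-kB and acute cytokine genes 23 passed the filter, with a median of 0.22. Il1b, the inflammatory cytokine interleukin-1 beta, stood at 3.90 and 2.31 TPM at 12 h, against 0.759 and 1.56 TPM at 0 h (log2 fold change 0.92). Nfkbiz, an inducible nuclear regulator of NF-kB, stood at 29.3 and 14.4 TPM at 12 h, against 37.7 and 54.0 TPM at 0 h (log2 fold change -1.10). Of the 23, 19 had a positive fold change and 4 a negative one. Both 12 h libraries were above both 0 h libraries for 4, against 11.2% of all genes, and below both for 1, against 14.0%. The highest value lay in 12 h library 2 for 16, against 38.4% of all genes. The median was 0.11 without 12 h library 2 and 0.63 without 12 h library 1. Of 24 interferon-stimulated genes 14 passed the filter, since many, such as Mx1 and Cmpk2, lay under 1 TPM in all 4 lung libraries. The 14 had a median of 0.41, which was 0.11 without 0 h library 1, where 12 of the 14 were lowest. Of the 14, 6 were higher in both 12 h libraries, against 11.2% of all genes. Bst2 (tetherin, which holds virus particles at the cell surface) was among these 6, at 31.4 and 40.5 TPM, against 23.5 and 19.9 TPM at 0 h.

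**Figure D3:**
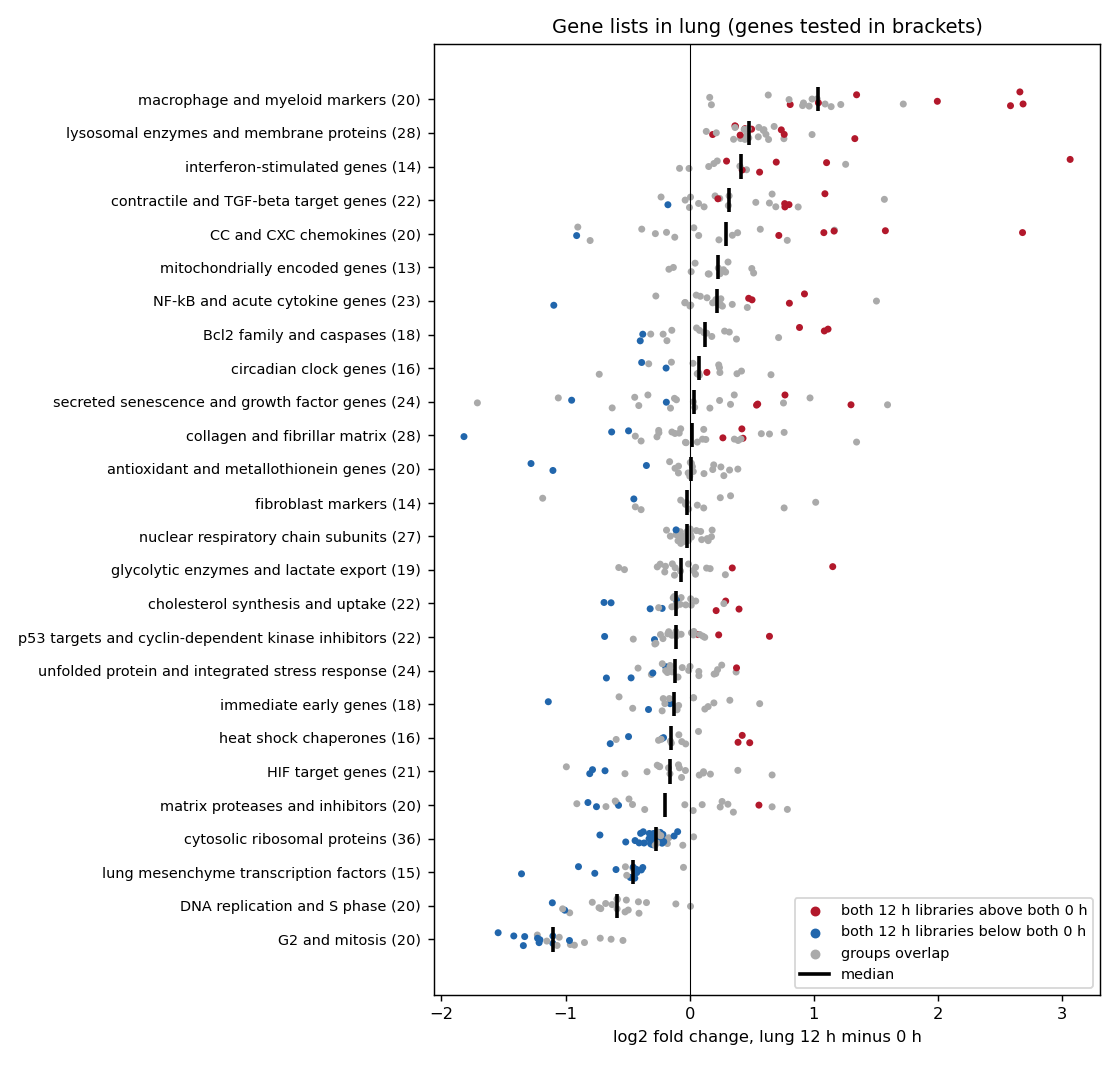
Log2 fold change in lung, 12 h minus 0 h (horizontal axis), for each tested gene of 26 groups, 1 group per row, with the number tested in brackets and a bar at the median. Red points have both 12 h libraries above both 0 h libraries and blue points both below. Medians run from 1.03 for macrophage and myeloid markers to -1.10 for G2 and mitosis genes.

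Genes of cell division were lowest in 12 h library 1, and none passed the adjusted threshold in limma. All 20 G2 and mitosis genes had a negative fold change, with a median of -1.10, and both 12 h libraries were below both 0 h libraries for 10 of them, against 14.0% of all genes. They summed to 144 and 634 TPM at 12 h, against 696 and 765 TPM at 0 h. Cdc20, the activator of the anaphase-promoting complex, stood at 10.1 and 36.3 TPM at 12 h, against 59.2 and 57.6 TPM at 0 h (log2 fold change -1.54, SE 0.822, limma adjusted p = 1). Kif20a, a kinesin of cytokinesis, stood at 8.04 and 29.7 TPM at 12 h, against 38.9 and 48.6 TPM at 0 h. Ccnb1, cyclin B1, stood at 11.3 and 47.7 TPM at 12 h, against 58.2 and 64.1 TPM at 0 h. In these 3 genes 12 h library 1 was far below the others, and 12 h library 2 nearer to the 0 h libraries.

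Replication genes lay apart in the 12 h libraries, lowest in 12 h library 1 and, for 16 of 20, highest in 12 h library 2. Of 20 DNA replication and S phase genes 19 had a negative fold change, with a median of -0.59, and they summed to 269 and 955 TPM at 12 h, against 792 and 645 TPM at 0 h. All 20 of these and all 20 G2 and mitosis genes were lowest in 12 h library 1. Tyms, thymidylate synthase, was below both 0 h libraries in both 12 h libraries, at 19.5 and 30.0 TPM, against 54.8 and 51.9 TPM at 0 h (log2 fold change -1.11). Without 12 h library 1 the median was -0.10 for G2 and mitosis genes and 0.35 for S phase genes, and without 12 h library 2 it was -2.07 and -1.54. In ear the medians were -0.68 and -0.44, and there ear 12 h library 1 was the lowest, at 183 TPM summed over G2 and mitosis genes against 597 to 1168 TPM in the 3 ear libraries at 0 h.

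Of 36 cytosolic ribosomal protein genes tested, 35 had a negative fold change, with a median of -0.27. Both 12 h libraries were below both 0 h libraries for 25 of the 36, against 14.0% of all genes. They summed to 50199 and 44592 TPM at 12 h, against 60662 and 53937 TPM at 0 h. Rpl10a stood at 1162 and 1129 TPM at 12 h, against 2128 and 1683 TPM at 0 h (log2 fold change -0.72). Rpl3 stood at 618 and 741 TPM at 12 h, against 1023 and 915 TPM at 0 h (log2 fold change -0.52). Rplp0, of the ribosomal stalk, stood at 2437 and 2174 TPM at 12 h, against 3377 and 2889 TPM at 0 h (log2 fold change -0.44). For each of these the 12 h libraries lay below both 0 h libraries. The median of the group was -0.15 after quantile normalization, -0.29 after upper-quartile scaling and -0.37 to -0.18 with a library left out, and in ear it was -0.12. Ribosomal protein genes have many processed pseudogenes, so their values depend on how reads were divided.

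Transcription factors of lung mesenchyme had lower values at 12 h, and none passed the adjusted threshold in limma. Of 16 listed 15 passed the filter, all 15 with a negative fold change and a median of -0.46. Both 12 h libraries were below both 0 h libraries for 11 of them, against 14.0% of all genes. Meox2, a homeobox factor of mesenchymal cells, stood at 2.33 and 1.78 TPM at 12 h, against 4.90 and 9.28 TPM at 0 h (log2 fold change -1.36, SE 0.306, limma adjusted p = 0.659). Tbx4, a T-box factor of lung mesenchyme, stood at 21.6 and 12.8 TPM at 12 h, against 22.3 and 37.7 TPM at 0 h (log2 fold change -0.77). Tcf21, which marks lipid-storing fibroblasts of the lung, stood at 6.65 and 1.90 TPM at 12 h, against 7.80 and 7.74 TPM at 0 h (log2 fold change -0.90). In Tbx4 and Tcf21, 12 h library 1 was close to the lower 0 h library and 12 h library 2 well below it. Tbx2 stood at 10.6 and 9.51 TPM at 12 h, against 17.5 and 13.99 TPM at 0 h (log2 fold change -0.59), with the libraries of each time closer together. Foxf1 stood at 21.7 and 18.4 TPM at 12 h, against 22.8 and 18.8 TPM at 0 h, and its groups overlapped. Of the 15 genes 13 were lowest in 12 h library 2, the library with the most macrophage transcripts, whose part in this was not tested. The median was -0.33 without 12 h library 2 and -0.78 without 12 h library 1. The 16 listed genes were at low levels in ear, where they summed to 13.3 to 16.7 TPM at 12 h, against 11.3 to 13.9 TPM at 0 h, so no fold change of the group is set beside that in lung.

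**Figure D4:**
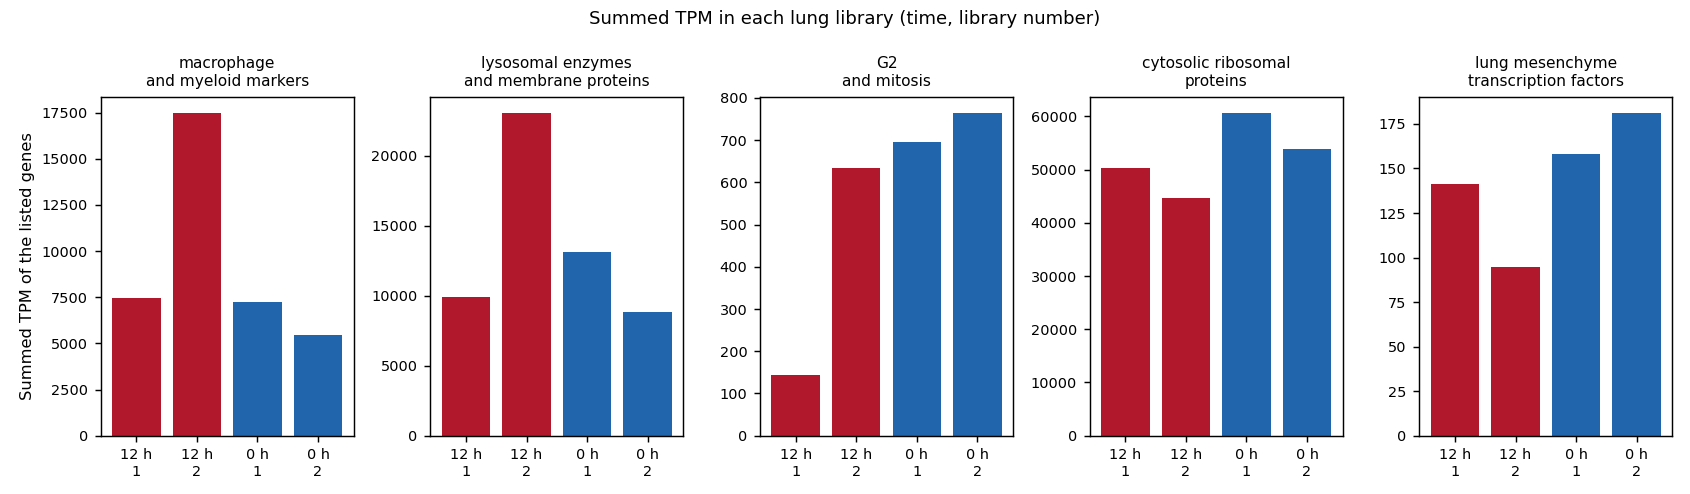
Summed TPM of 5 gene groups (bars start at 0) in each lung library at 12 h (red) and 0 h (blue), libraries 1 and 2 of each time. Macrophage and lysosomal genes are highest in 12 h library 2, at 17485 and 23071 TPM, and G2 and mitosis genes lowest in 12 h library 1, at 144 TPM, while ribosomal protein genes and lung mesenchyme transcription factors are lower in both 12 h libraries than in either 0 h library.

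The fold changes of matrix genes lay on both sides of 0. The 28 collagen and fibrillar matrix genes had a median of 0.02, with 14 positive and 14 negative fold changes. The highest value lay in 0 h library 2 for 17 of them, against 27.8% of all genes. The median was -0.48 without 0 h library 1 and 0.41 without 0 h library 2. Fbln1, the matrix glycoprotein fibulin-1, stood at 2.71 and 4.26 TPM at 12 h, against 13.4 and 15.8 TPM at 0 h (log2 fold change -1.82, SE 0.543, limma adjusted p = 1). Loxl1, an elastin crosslinking enzyme, stood at 79.8 and 66.5 TPM at 12 h, against 94.96 and 134.9 TPM at 0 h (log2 fold change -0.63). Thbs1, thrombospondin-1, stood at 1562 and 1942 TPM at 12 h, against 1509 and 1109 TPM at 0 h (log2 fold change 0.43). Fbln1 was thus low in both 12 h libraries by a wide gap, while the gaps of Loxl1 and Thbs1 were small beside the spread between libraries.

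The 22 contractile and TGF-beta target genes had a median of 0.31, with 18 positive, and 12 were highest in 12 h library 1. Cnn1, the smooth muscle protein calponin, stood at 999 and 432 TPM at 12 h, against 346 and 430 TPM at 0 h (log2 fold change 0.77). Ankrd1, a target of mechanical and TGF-beta signalling, stood at 276 and 402 TPM at 12 h, against 254.5 and 95.7 TPM at 0 h (log2 fold change 1.09). Without 12 h library 1 the median of the group was 0.01. Among secreted factors, Igf1, the growth factor IGF-1, stood at 160 and 235 TPM at 12 h, against 65.1 and 93.6 TPM at 0 h (log2 fold change 1.299). Igfbp6, a binding protein of insulin-like growth factors, stood at 9.90 and 9.66 TPM at 12 h, against 20.3 and 19.4 TPM at 0 h (log2 fold change -0.95). Both genes had groups that did not overlap, and neither passed the adjusted threshold in limma.

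The groups of stress and hypoxia genes had medians between -0.16 and 0.01 with all libraries. The 18 immediate early genes tested, which cells induce within minutes of a stimulus, had a median of -0.13, and Egr1 stood at 2.87 and 4.05 TPM at 12 h, against 14.3 and 5.17 TPM at 0 h. The 21 tested targets of the hypoxia factor HIF had a median of -0.16 in lung and 0.46 in ear. Adm, adrenomedullin, stood at 457 and 222 TPM in lung at 12 h, against 497 and 626 TPM at 0 h (log2 fold change -0.81). The median of HIF targets changed sign with the library left out, from -0.65 without 0 h library 1 to 0.38 without 0 h library 2, and 14 of 21 were highest in 0 h library 2. The 24 genes of the unfolded protein and integrated stress response had a median of -0.12, with the endoplasmic reticulum chaperone Hspa5 at 692 and 864 TPM at 12 h, against 1206 and 955 TPM at 0 h. The 16 heat shock chaperone genes had a median of -0.15. Hspa1b, an inducible Hsp70 gene with a near-identical copy, stood at 6.14 and 6.09 TPM at 12 h, against 11.3 and 8.97 TPM at 0 h. Nqo1, an antioxidant enzyme, stood at 22.6 and 68.3 TPM at 12 h, against 95.9 and 98.4 TPM at 0 h (log2 fold change -1.28), in a group of 20 antioxidant and metallothionein genes with a median of 0.01, which was 0.32 without 12 h library 1 and -0.49 without 12 h library 2.

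The difference between 12 h and 0 h was also set against that in ear by testing the interaction of tissue and time. In limma 0 genes passed an adjusted p under 0.05 for this difference, and 354 (2.88%) had an unadjusted p under 0.05. In ear itself 0 genes were called and 151 (1.23%) had an unadjusted p under 0.05. With no difference a share of 0.05 would be expected there, so neither count is an excess. For Ccl12 the lung minus ear difference of log2 fold changes was 2.61 with an SE of 0.278 and an adjusted p of 0.0595 (limma). For Il1rl1, which stood at 1237 to 2520 TPM in ear at 12 h, against 1070 to 1992 TPM at 0 h, it was 1.68 (limma adjusted p = 1.00). For Nsg1, at 269 to 441 TPM in ear at 12 h, against 305.5 to 430 TPM at 0 h, it was -1.32 (limma adjusted p = 1.00). None of the differences described in lung was therefore shown to be larger or smaller than in ear. The test treats lung and ear libraries as independent samples.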

How the data were processed

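RNA was measured in 4 lung and 6 ear libraries. The authors deposited TPM per transcript. Per the submitters' processing notes the tool was kallisto 0.44.1 and the build GRCm38. Other steps used by the authors, and the depth, are unknown here. TPM is a share, so 1 abundant gene lowers the others.

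Of 61440 transcripts 60503 matched GENCODE vM21 by Ensembl ID (56128 with the same version), and 937, with 0.508% to 0.553% of lung TPM, were left out. TPM was summed per gene. Genes at 1 TPM or more in 2 of 4 lung libraries were tested on log2(TPM + 1), with 1 mean per group over all 10 libraries (limma 3.58.1, R 4.3.3, eBayes with trend, 6 residual and 3.28 prior degrees of freedom), Benjamini-Hochberg adjustment and a threshold of 0.05. Tests were two-sided. The fit was tested on simulated data.

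Named genes are the 12 per direction with an adjusted p under 0.05 and non-overlapping groups by fold change, filled in order of unadjusted p with genes at 5 TPM or more in the higher group. Up to 4 members per gene list were added: called members and then those with non-overlapping groups, each by size of fold change, then others by level, and for marker lists by mean level. Other genes named were chosen after their values were seen: the Ccl12 neighbours, Cxcl12, Dcn, Foxf1, Pecam1, Nkx2-1, Mx1, Cmpk2 and the lymphocyte markers at 0. Members and lists were chosen with earlier results of these data known. Alternatives were other pseudocounts, filters, scalings and fits, a replicate block and leaving out libraries.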

Additional observations from a re-analysis of the deposited data

How the results depend on the processing

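The number of genes called at an adjusted p under 0.05 was at most 5 under each alternative but 1 (limma, main value 1). It was 0 with a pseudocount of 0.1 (475 genes at an unadjusted p under 0.05), 0 with a filter of 5 TPM (352), 0 with the lung libraries alone (316), 2 after quantile normalization, which were Ccl12 and C1qb, and 5 with no filter, where Prss46, Slc28a2, Trpm2 and Gvin1 joined Ccl12. With a library left out it ran from 0 to 198: 198 without 12 h library 1, 3 without 12 h library 2, and 0 without 0 h library 1 (561 unadjusted) or 0 h library 2 (396). The number called for the difference between lung and ear was 0, and 1, which was Ccl12, with a pseudocount of 5, no filter, quantile normalization, upper-quartile scaling and eBayes without trend. With a library left out it ran from 0 to 60. Of the genes named with a fold change, the fold change of Cd68, 0.99 with all libraries, ran from -0.15 without 12 h library 2 to 2.12 without 12 h library 1.

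With the replicate number as a block, 0 genes were called (619 unadjusted) and the limma adjusted p of Ccl12 was 0.318. Deviations of same-numbered lung libraries correlated at -0.455 across genes. With 2 libraries per time this is 1 value, which also fixes that of the crossed pairs. It cannot show whether equal numbers mark a shared origin. A crossed pairing, chosen after seeing the data, called 0 genes (1173 unadjusted). Between lung and ear, same-numbered libraries of a time correlated at 0.272 and 0.267 at 12 h, and at -0.222 and -0.076 at 0 h. With time and number as a random block shared by lung and ear, also chosen after seeing the data, 1 gene was called in lung, Ccl12 (518 unadjusted, adjusted p = 0.00541 in limma), and 0 for the difference between lung and ear, where the adjusted p of Ccl12 was 0.0836. The fixed block left 3 residual degrees of freedom in place of 6. Other causes of these shifts were not tested.

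With 2 libraries per time and unknown depth, a p that missed the threshold does not show that a gene did not differ. TPM near 1 is compressed by the pseudocount, and fold changes of such genes understate their size.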

Other observations

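Several groups of genes outside the comparisons above were also measured. Circadian clock genes (16 of 18 tested) had a median log2 fold change of 0.08 in lung, and the 19 glycolytic genes a median of -0.07. Of the 22 cholesterol synthesis and uptake genes 15 had a negative fold change, with a median of -0.11. The 27 nuclear genes of the respiratory chain had a median of -0.02, whereas the 13 mitochondrially encoded genes had a median of 0.23 and all 13 were highest in 12 h library 1. That median was -0.19 without 12 h library 1, 0.63 without 12 h library 2 and -0.05 without 0 h library 1. Of the 22 p53 targets and cyclin-dependent kinase inhibitors tested the median was -0.11.

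Of the 18 Bcl2 family and caspase genes tested 12 had a positive fold change and 6 a negative one, with a median of 0.12. Bcl2a1b, a survival gene of leukocytes with near-identical copies, stood at 58.0 and 113 TPM at 12 h, against 51.2 and 26.6 TPM at 0 h (log2 fold change 1.11). None of the 18 passed the adjusted threshold in limma.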
